A study of Mus musculus with 36 samples.

Results

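Slc7a11, Mtrr and Mat2a are 3 genes of cystine uptake and methionine metabolism. They were examined for histone marks in mouse aortic smooth muscle cells that lack cystathionine gamma-lyase (CSE, encoded by Cth). All rows carrying these symbols were taken from the authors' deposited tables of knockout against wild type, which gave 4 peaks of 13958: 3 of 8115 for H3K9ac, 1 of 469 for H3K4me3 and 0 of 5374 for H3K9me3. Those tables name 9822 genes in all. The 3 genes were chosen by the measured values themselves, since each has a peak that the authors had listed as different at a p of 0.05. Their folds and p-values are therefore descriptions and support nothing further. The largest listed p was 0.0499 and the member peak nearest to that limit had a p of 0.04, by the authors' deposited table for H3K9ac. Peaks of larger p are not listed.

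Sulfur enters the cell mainly as methionine and as cystine. In the methionine cycle, Mat2a makes S-adenosylmethionine, the methyl donor of histone and DNA methylation, from methionine. Homocysteine, the product left after methyl transfer and hydrolysis, is either turned back into methionine by methionine synthase, which Mtrr keeps in its active form, or passed by transsulfuration to cysteine. CSE performs the last step of that route and also releases hydrogen sulfide. Slc7a11 is the transport subunit of the exchanger that brings cystine into the cell in return for glutamate. Cystine is reduced inside the cell to cysteine, the limiting building block of glutathione. H3K9ac and H3K4me3 mark active promoters, and H3K9me3 marks heterochromatin.

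Primary smooth muscle cells had been isolated from the aorta of C57BL/6N mice (wild type) or of mice without CSE in the whole body. Every group received angiotensin II, a vasoconstrictor peptide, at 1 µM for 24 hours, and untreated cells were not analysed here. Each mark had 3 immunoprecipitated and 3 input libraries per genotype, 36 samples in all. The sources used here do not say whether the 3 came from separate animals or cultures, so the p-values may measure technical spread only. The files hold group means without a value per sample, so no spread or depth could be given. The whole-body deletion was present before the cells were isolated. Of 6 smooth muscle markers, 4 (Acta2, Myocd, Smtn and Tagln) had listed H3K9ac peaks, with log2 mean signal between 3.53 and 7.61 by the authors' deposited table. Of the markers of other cell types, 1 of 3 endothelial, 2 of 3 leukocyte and 2 of 3 fibroblast genes were also listed, and the part of such cells in the results was not tested. For the 3 leukocyte peaks (Cd14 and Aif1), all higher in the knockout, log2 mean signal lay between 3.54 and 9.98 by the authors' deposited table. Of the 6 smooth muscle peaks 2 were higher and 4 lower, and of the 2 fibroblast peaks 1 was higher and 1 lower. The endothelial peak (Pecam1) was higher, at a log2 mean signal of 7.62 by the authors' deposited table. A gene without a listed peak may have had no difference, no peak, or a p under the smallest one listed (0.000101 for H3K9ac by the authors' deposited table).

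Sequences before the start sites of Slc7a11 and Mat2a are shown first, because the listed peak of each gene lies on or next to them. They are the 250 bases upstream of the start site in the RefSeq table for GRCm38.p6, on the minus strand, 5′ to 3′. Slc7a11 is at chr3:50443614-50443863 and Mat2a at chr6:72439557-72439806. The RefSeq span of Slc7a11 runs 55.5 kb further upstream, so this start, the only Slc7a11 start in the promoter table, lies inside the RefSeq gene. Capitals mark the 8-letter core of the amino acid response element (TGATGNAA, either strand) in Slc7a11 and the TATA box (TATAAA, either strand) in Mat2a.
Slc7a11: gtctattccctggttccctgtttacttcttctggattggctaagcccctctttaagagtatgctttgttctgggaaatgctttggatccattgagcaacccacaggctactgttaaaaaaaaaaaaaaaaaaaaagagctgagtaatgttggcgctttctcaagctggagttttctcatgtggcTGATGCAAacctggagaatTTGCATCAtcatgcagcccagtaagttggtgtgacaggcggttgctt
Mat2a: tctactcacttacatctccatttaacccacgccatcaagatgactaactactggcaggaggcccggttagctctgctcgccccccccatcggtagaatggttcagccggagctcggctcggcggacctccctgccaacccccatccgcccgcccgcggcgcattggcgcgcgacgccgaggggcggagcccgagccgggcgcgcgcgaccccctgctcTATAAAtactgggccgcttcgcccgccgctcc

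The Slc7a11 sequence holds the response element core in both orientations. Cores of this kind are known binding sites of ATF4, a transcription factor of amino acid shortage. The forward copy starts 66 bases and the reverse copy 47 bases before the start site. Of 32851 RefSeq promoter windows (250 bases before to 50 after a start), 3.97% held at least 1 core and 0.07%, or 23 windows, held at least 2. Among the 80 windows that the RefSeq table holds for 61 of 81 genes of sulfur amino acid and folate metabolism, those of Chac1, Got1, Slc1a4, Slc7a11 and Sqor held the core. The Mat2a TATA box starts 32 bases before its start site, and 13.6% of all windows held one. An antioxidant response element core (TGACNNNGC, either strand) was in 12.4% of all windows and in none of the windows of the 3 genes, as was an E-box (CACGTG), found in 7.15% of all windows. Base composition separated the 3 genes. The window of Slc7a11 held 4 CpG dinucleotides and 44.7% G and C, against a median of 7 and 52.7% over all windows. That of Mat2a held 34 CpGs, and the 2 windows of Mtrr held 37 and 39, above 92.3%, 94.4% and 95.6% of all windows. These matches describe letters and do not show that a factor was bound.

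Slc7a11 had 2 listed H3K9ac peaks, and they differed in opposite directions. The first covers the start site, at chr3:50442935-50444396 (1462 bases), and contains the whole Slc7a11 sequence printed above. Its log2 mean signal was 6.05 in wild type and 6.89 in knockout, or 66.3 and 119 mean normalised reads, by the authors' deposited table. The difference was a log2 fold change of 0.84, or 1.79-fold higher in the knockout, with a p of 0.04 and an FDR (false discovery rate) of 0.29 by the authors' deposited table. It did not pass an FDR of 0.05. In such bulk chromatin a different share of cells with the mark and a different level per cell cannot be told apart. Most listed peaks had a smaller p (88.4%), and only 11.4% of the 1850 higher peaks had a smaller fold. Its mean signal was above that of 77.0% of listed peaks.

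The second peak lies inside the gene, 61.4 kb downstream of that start site, at chr3:50381675-50382178 (504 bases). The authors annotate it to exon 8 of 12 of transcript ENSMUST00000194462. The start it is nearest to is that of a short Slc7a11 transcript (ENSMUST00000192564), 10876 bases further along the gene. Its log2 mean signal was 5.19 in wild type and 3.48 in knockout, or 36.5 and 11.2 mean normalised reads, by the authors' deposited table. The knockout was 3.27-fold lower (log2 fold change −1.71, p 0.00231, FDR 0.0553) by the authors' deposited table, which also missed an FDR of 0.05. Of all listed H3K9ac peaks, 18.5% had a smaller p, and 82.3% of the 6265 lower peaks had a smaller fold.

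**Figure D1:**
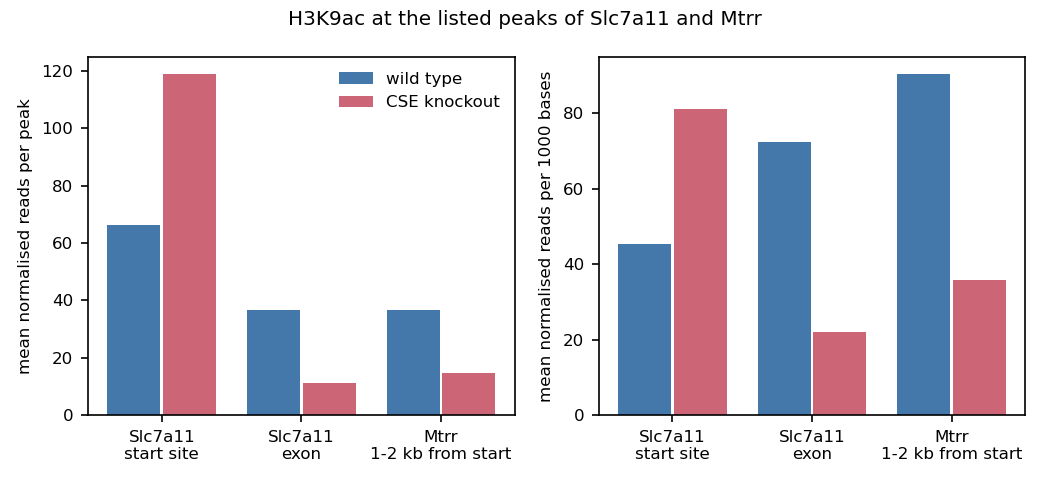
Mean normalised H3K9ac reads per listed peak (left) and per 1000 bases of peak (right) at the start-site and exon peaks of Slc7a11 and at the Mtrr peak, for wild type (blue) and CSE knockout (red). Bars are the authors' group means without error bars, since no values per sample are given. At Slc7a11 the knockout bar is higher at the start site (119 against 66.3 reads) and lower at the exon (11.2 against 36.5 reads).

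Because the peaks differ in width, they were also compared per length. In wild type, H3K9ac was 45.3 mean normalised reads per 1000 bases at the start-site peak and 72.4 at the exon peak, computed from the authors' deposited table. In knockout the same levels were 81.1 and 22.1, computed from the authors' deposited table. Per length, the exon peak was thus 1.60 times the start-site peak in wild type, while the start-site peak was 3.66 times the exon peak in knockout. By reads per peak the start-site peak was the larger in both genotypes, 1.82 times the exon peak in wild type and 10.6 times in knockout. Which peak was larger in wild type therefore depends on the scale and on the called widths. No test of the change between genotypes was possible from group means. The plot of reads per peak and per length shows both scales.

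Opposite directions within a gene were not particular to Slc7a11. Of 1388 genes with at least 2 listed H3K9ac peaks, 234 or 16.9% had peaks in both directions. Of 66 genes with a higher peak within 1 kb of a start site and a listed peak outside promoters, 30 or 45.5% had a lower peak outside promoters. Slc7a11 is 1 of these 30.

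Around Slc7a11 the tables are sparse. No other listed peak of any mark lay within 100 kb of the gene. The nearest H3K9ac peaks were annotated to Pcdh18, 623 kb away from the exon peak, and Gm38357, 787 kb away from the start-site peak on the other side. Pcdh18 was 1.68-fold lower (FDR 0.276) and Gm38357 7.01-fold higher (FDR 0.151) by the authors' deposited table, the latter from a wild-type log2 signal of 1.02. On chromosome 3, which carries both Slc7a11 and Cth 107 Mb apart, 53 of 415 listed H3K9ac peaks were higher (12.8%) against 22.8% over the table. The Slc7a11 start-site peak is thus 1 of those 53, and its exon peak goes with the 362 lower ones.

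**Figure D2:**
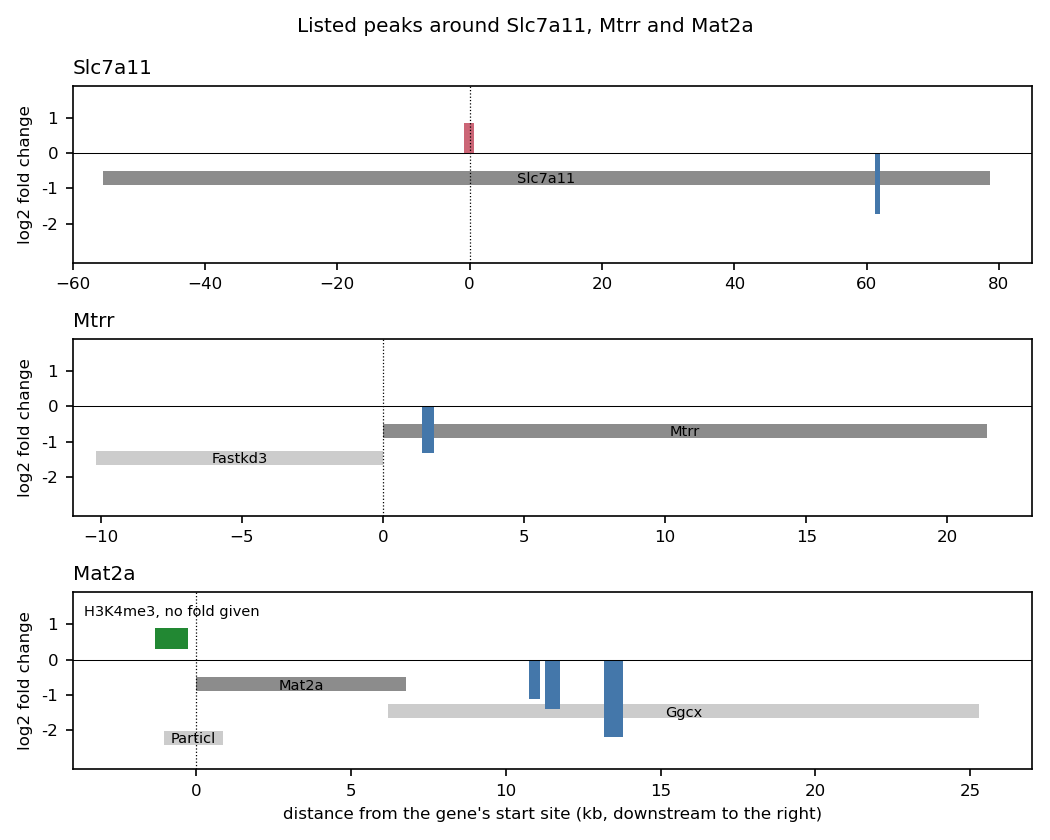
Listed peaks around Slc7a11, Mtrr and Mat2a, by distance from each gene's RefSeq start site (kb, downstream to the right). Coloured bars give the log2 fold change of H3K9ac peaks (red higher, blue lower in knockout), the green box marks the H3K4me3 peak, whose height has no meaning, and grey bars are gene spans in RefSeq. Slc7a11 has a higher peak at its start and a lower one 61.4 kb downstream, Mtrr a lower peak just inside the gene, and Mat2a only lower peaks in the neighbouring Ggcx.

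Mtrr, the reductase that reactivates methionine synthase, had 1 listed H3K9ac peak, at chr13:68580378-68580781 (404 bases). The authors class it as a promoter peak, 1113 bases downstream of the start of transcript ENSMUST00000223055. By RefSeq it lies inside the gene, 1388 bases downstream of the outermost start. Its log2 mean signal was 5.19 in wild type and 3.86 in knockout, or 36.5 and 14.5 mean normalised reads, by the authors' deposited table. The knockout was 2.50-fold lower (log2 fold change −1.32, p 0.0251, FDR 0.228) by the authors' deposited table, and did not pass an FDR of 0.05. Per 1000 bases the levels were 90.4 in wild type and 35.9 in knockout, computed from the authors' deposited table. Wild-type signal per 1000 bases was thus higher here than at either Slc7a11 peak, with no spread to judge the gap by. The Mtrr peak is also narrower than both. Per peak, its wild-type reads equalled the 36.5 of the Slc7a11 exon peak and were below the 66.3 of the start-site peak, by the authors' deposited table. Of the lower peaks, 63.7% had a smaller fold.

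The start of Mtrr is shared with Fastkd3, a mitochondrial RNA-binding protein gene on the opposite strand, and their RefSeq spans overlap by 3 bases. No listed peak of any mark covered that common start, nor lay within 100 kb of Mtrr apart from its own. The nearest peaks were an H3K9me3 peak annotated to Gm7979, 324 kb away (7.73-fold higher, FDR 1 by the authors' deposited table), and an H3K9ac peak annotated to BC048507, 704 kb away on the other side. BC048507 was 2.89-fold higher (FDR 0.0712) by the authors' deposited table. On chromosome 13, 274 of 332 listed H3K9ac peaks were lower (82.5%), against 77.2% over the table.

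Mat2a, the S-adenosylmethionine synthetase subunit of tissues outside the liver, had 1 listed H3K4me3 peak and no listed H3K9ac or H3K9me3 peak. The H3K4me3 peak lies at chr6:72439822-72440893 (1072 bases), 264 bases upstream of the start of transcript ENSMUST00000059472. It begins 15 bases beyond the RefSeq window of Mat2a, so it does not reach the sequence printed above. Of its bases, 794 fall within Particl, a non-coding RNA gene on the opposite strand whose span crosses the Mat2a start. Whether the peak belongs to Mat2a or to Particl cannot be told from its position. The H3K4me3 table gives no signal, fold or p, so neither the level nor the direction of the difference is known. Its width was ordinary: 48.0% of listed H3K4me3 peaks were narrower, and the median was 1104 bases. Chromosome 6 held 88 of the 469 listed H3K4me3 peaks, a larger share than its 550 of 8115 H3K9ac and 445 of 5374 H3K9me3 peaks. Of those H3K9me3 peaks 27.6% were higher in knockout, against 61.0% over all listed H3K9me3 peaks. Chromosome 13, which carries Mtrr, departed the other way, with 205 of 243 listed H3K9me3 peaks higher (84.4%), and chromosome 3 was near the whole at 62.2%. Why chromosomes 6 and 13 differ was not tested.

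Close to Mat2a, H3K9ac was lower at 3 listed peaks within Ggcx. Ggcx encodes the vitamin K-dependent carboxylase that activates matrix Gla protein, an inhibitor of vessel wall calcification. Ggcx runs toward Mat2a on the other strand, and their 3′ ends overlap by 564 bases. The 3 peaks, 3.98, 4.52 and 6.39 kb from Mat2a, were 2.19-fold, 2.62-fold and 4.56-fold lower by the authors' deposited table. Their FDRs were 0.308, 0.205 and 0.0607 by the authors' deposited table, so none passed 0.05. For the farthest of them, log2 mean signal was 4.90 in wild type and 2.71 in knockout by the authors' deposited table. The nearest peak on the other side, 94.5 kb from Mat2a and annotated to Capg, an actin-capping protein gene, was 2.66-fold lower with an FDR of 0.00741 by the authors' deposited table. Lower H3K9ac was the usual direction on chromosome 6, with 462 of 550 listed peaks (84.0%).

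Of the 3 genes together, 1 of the 3 H3K9ac member peaks was higher and the other 2 lower, against 22.8% higher and 77.2% lower over the table. None had an FDR under 0.05, against 16.6% of listed peaks. No listed H3K9ac peak had a p under 0.000101 by the authors' deposited table. Any peak below that p is therefore missing from every share of listed H3K9ac peaks given here. No test of these shares was run. The plot of all listed H3K9ac peaks by signal places the 3 within the range of other peaks of like signal.

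**Figure D3:**
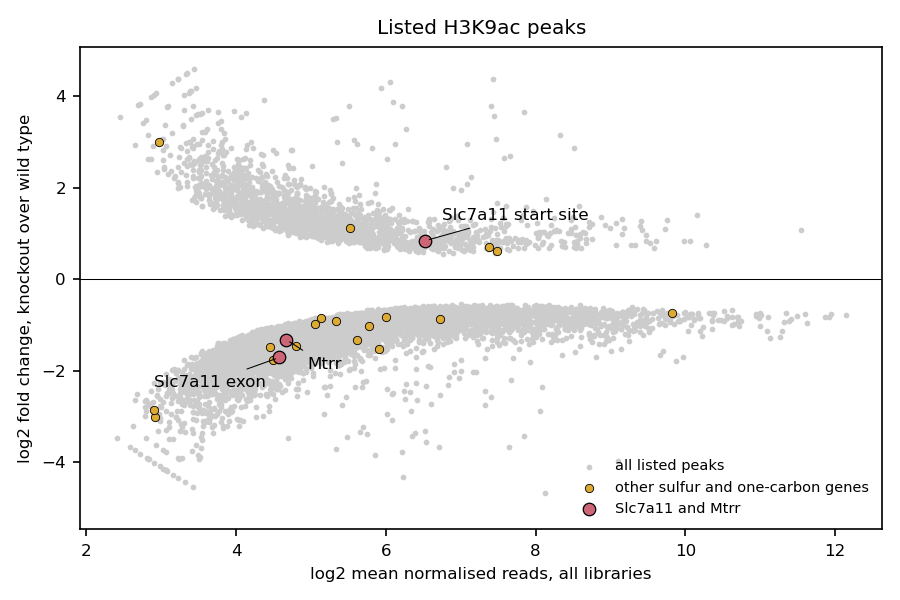
Log2 fold change (knockout over wild type) against log2 mean normalised reads for all 8115 listed H3K9ac peaks (grey), 18 peaks of other sulfur amino acid and folate genes (yellow), and the 3 peaks of Slc7a11 and Mtrr (red). The empty band around 0 is the authors' selection. The Slc7a11 start-site peak (0.84) lies at the inner edge of the higher peaks, and the Slc7a11 exon (−1.71) and Mtrr (−1.32) peaks lie at low signal among the lower ones.

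The rest of the pathway was read from a list of 81 genes, the 3 members included, of which 21 had a listed peak of any mark. For H3K9ac, 16 genes had 21 listed peaks, 5 higher and 16 lower (76.2% lower), which is close to the 77.2% of the table. Their median log2 fold change was −0.97, against −0.98 over all listed peaks. Of the 21 peaks 2, at Mthfd1 and Ggt1, had an FDR under 0.05 by the authors' deposited table, or 9.52% against 16.6%. By gene symbol, 11 had only lower, 3 only higher and 2 (Slc7a11 and Mthfd1l) both kinds of peak. Peaks that lie in a pathway gene but carry another symbol are not in these counts.

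Among the 8 transporters of cystine and cysteine, Slc7a11 was the only gene with a listed H3K9ac peak. Its partner Slc3a2, the heavy chain that anchors the exchanger in the membrane, was not listed for any mark. Slc1a1, a glutamate and cysteine transporter, had an intronic H3K9me3 peak with a log2 mean signal of 2.73 in knockout and −0.45 in wild type (FDR 1) by the authors' deposited table. Of the 4 methionine transporters, Slc38a2, which carries small neutral amino acids, had 2 nearly adjoining H3K9ac peaks toward its 3′ end. The first ends at chr15:96690877 and the second starts at chr15:96690887. These peaks were 1.96-fold (FDR 0.284) and 8.11-fold lower (FDR 0.21) by the authors' deposited table. The larger fold rests on 1.66 mean normalised reads in knockout, computed from the authors' deposited table. In Slc43a2, another gene of the pathway list, an intronic H3K9ac peak carrying the symbol Mir3971 was 3.10-fold higher (FDR 0.244) by the authors' deposited table.

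Within the methionine cycle, Ahcyl2, a relative of the enzyme that hydrolyses S-adenosylhomocysteine, was listed beside Mtrr and Mat2a. Its start-site H3K9ac peak had log2 mean signal of 7.09 in wild type and 6.23 in knockout (1.83-fold lower, FDR 0.136) by the authors' deposited table. The other 9 of the 12 cycle genes, among them Mtr (methionine synthase itself), Ahcy and Mat2b, had no listed peak, nor had the 6 genes of cobalamin supply. Of the 7 genes of transsulfuration and hydrogen sulfide synthesis none was listed, including Cbs and Mpst, the other hydrogen sulfide-forming enzymes, and Cth itself. The knockout could therefore not be checked at its own gene.

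The folate cycle hands methyl groups to methionine synthase, and 4 of its 11 genes were listed. The start-site H3K9ac peak of Mthfd1, a cytosolic folate enzyme with several activities, was 2.51-fold lower (log2 6.13 in wild type, 4.80 in knockout, FDR 0.0395) by the authors' deposited table. Mthfd1l, its mitochondrial relative, had 2 intronic peaks under its own symbol, 22.1 kb apart. Of these, 1 was higher (log2 0.80 in wild type, 3.80 in knockout, FDR 0.138) and the other 3.41-fold lower (FDR 0.0714) by the authors' deposited table. The wild-type value of the higher one equals 1.74 reads, so its difference rests on few reads. Listed H3K9ac peaks in other introns of Mthfd1l carry the symbols Gm16074 and Gm25515. All were lower, Gm16074 7.11-fold (FDR 0.0531) and 7.67-fold (FDR 0.216), and Gm25515 1.80-fold (FDR 0.0911), by the authors' deposited table. The Gm16074 folds also rest on few reads, 2.83 and 8.34 mean normalised reads in knockout, computed from the authors' deposited table. Upstream of Shmt2, the mitochondrial serine hydroxymethyltransferase, a peak 3994 bases before the start was 2.16-fold higher (FDR 0.286) by the authors' deposited table. That peak is annotated to an exon of gene identifier ENSMUSG00000040258 (transcript ENSMUST00000095266), not of the Shmt2 transcript (ENSMUST00000026470). Mthfd2, the mitochondrial folate dehydrogenase, had a listed H3K4me3 peak of 2027 bases over its start site, on chromosome 6 like that of Mat2a.

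Of the 9 genes of methionine salvage and polyamine synthesis, 4 had H3K9ac peaks, and all 6 of those peaks were lower in the knockout. Their median log2 fold change was −0.94 by the authors' deposited table, none had an FDR under 0.05, and 77.2% of all listed peaks were lower too. Apip, a dehydratase of the salvage route, was 2.73-fold lower at its start site (FDR 0.0579) by the authors' deposited table. Mri1 and Mtap, which act in earlier steps of salvage, were 1.78-fold (FDR 0.233) and 1.80-fold lower (FDR 0.314) by the authors' deposited table. Odc1, the first enzyme of polyamine synthesis, had the highest wild-type H3K9ac per 1000 bases of the listed pathway peaks at its start, with a log2 mean signal per peak of 10.14 in wild type and 9.39 in knockout (1.68-fold lower, FDR 0.284) by the authors' deposited table. Its other peaks lie 38382 and 48305 bases upstream and were 2.79-fold (FDR 0.275) and 2.03-fold lower (FDR 0.136) by the authors' deposited table. Sms, spermine synthase, had a listed H3K4me3 peak of 1199 bases over a start site on chromosome X.

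Downstream of cysteine, 2 of 11 glutathione genes were listed. Ggt1, which cleaves glutathione outside the cell, was 2.87-fold lower within 1 kb of a start site (log2 6.48 in wild type, 4.95 in knockout, FDR 0.012) by the authors' deposited table. Oplah, 5-oxoprolinase of the glutathione cycle, was 1.54-fold higher at its start (FDR 0.235) by the authors' deposited table. Gclc, Gclm and Gss, the enzymes that build glutathione, were not listed. The taurine transporter gene Slc6a6 was 1.89-fold lower 1654 bases upstream of a start (FDR 0.223) by the authors' deposited table. Of the regulators, Nfe2l2 (NRF2, which drives Slc7a11 and glutathione genes) was 1.62-fold higher at an intronic peak (FDR 0.195) by the authors' deposited table. Keap1, its inhibitor, was 7.21-fold lower at a peak 4884 bases downstream of a start (FDR 0.177), with a knockout log2 signal of 0.87 by the authors' deposited table. The annotated exon there is of gene identifier ENSMUSG00000097439 (transcript ENSMUST00000181222), not of the transcript with that start (ENSMUST00000193247). Atf4 was not listed.

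**Figure D4:**
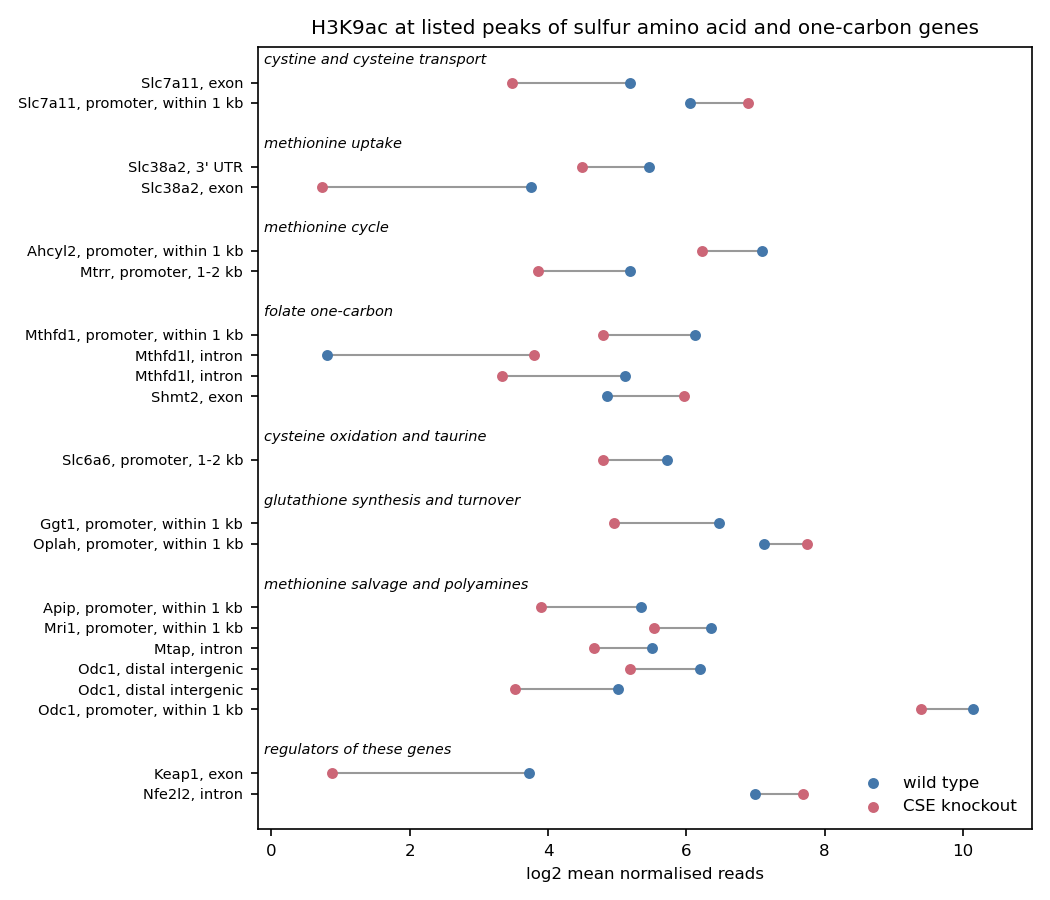
Log2 mean normalised H3K9ac reads in wild type (blue) and CSE knockout (red) at the 21 listed peaks of the pathway, 1 line per peak, grouped by role, with the authors' annotation beside each gene. Points are group means without error bars. The exons given at Keap1 and Shmt2 are of other gene identifiers. The knockout point lies to the left of wild type at 16 peaks and to the right at 5, those of Slc7a11 (promoter), Mthfd1l, Shmt2, Oplah and Nfe2l2.

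H3K9me3 was listed at none of the 3 member genes. The nearest H3K9me3 peaks to Slc7a11 and Mat2a lay 2110 kb and 771 kb away. In the pathway list 3 H3K9me3 peaks were listed, at Slc1a1 and Sqor, all higher in the knockout, against 61.0% of all listed H3K9me3 peaks. The Sqor peaks lie 150844 and 193759 bases beyond the start of this sulfide-oxidising enzyme's transcript, so they were assigned to it as intergenic peaks only. Their log2 mean signal was 3.27 and 3.10 in knockout (FDR 1 for both) by the authors' deposited table. At the first of them and at Slc1a1, the wild-type value of −0.45 is the lowest found in the authors' deposited table, shared by 1030 peaks, so no fold is given.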

How the data were processed

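ChIP-seq values for 3 marks came from 3 deposited tables of knockout against wild type. Per the submitters' processing notes, CASAVA 1.4 and the build mm9 were used; the sources used here do not give the aligner, peak caller, normalisation or test. Per the file headers, the authors give log2 mean normalised reads per group, its log2 ratio between groups, the p-value and its FDR for H3K9ac and H3K9me3, and positions only for H3K4me3. Other deposited columns (peak width, distance to a start site) are in bases; width exceeded end minus start plus 1 by 1 base, and the latter is used here. Peak positions are taken as GRCm38: 48.6% of H3K4me3, 9.97% of H3K9ac and 1.62% of H3K9me3 peaks overlapped a 300-base RefSeq promoter window of GRCm38.p6. No mm9 positions were used for comparison, so this does not settle the build.

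From these values, reads were computed as powers of 2 and divided by peak length. No test was run, since no values per sample are given; the tests planned for such values were therefore not used. Counts of direction, the selection by position and the motif search were tested on simulated data. Python 3.11.15, numpy 2.4.6, pandas 2.3.3 and matplotlib 3.10.9 were used. All 81 pathway symbols matched the RefSeq table. Depth is unknown. The members and lists were chosen with earlier results of these data known. Named genes are the members, every listed pathway gene, Cth, and the genes of peaks next to or within 100 kb of a member. Other genes fall outside this rule and were chosen after values were seen. They are unlisted pathway genes, genes in overlap with a member and genes with the response element core. Symbols on peaks inside pathway genes and genes of the closing section are of this kind too. Alternatives were promoter peaks only, stricter p, FDR, fold or signal, and assignment by position.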

Additional observations from a re-analysis of the deposited data

How the results depend on the processing

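Of 60 alternative counts, 34 stayed within 1.5 times the reported count and 26 did not. The 34 include every alternative of the H3K9me3 counts reported as 0, which stricter settings could not change. Most alternatives of the H3K9ac counts are among the 26. The alternatives keep, drop or, for assignment by position, add peaks, and the direction of each peak is the authors'. Member H3K9ac peaks, 1 higher and 2 lower as reported, became 1 and 1 with promoter peaks only, 0 and 1 at p under 0.01, 0 and 0 at FDR under 0.05, 0 and 2 at a log2 fold change of at least 1, and 1 and 0 at a mean signal at or above the table's median. Assigned within 10 kb, by transcripts in the files or by RefSeq genes, they were 1 and 5, through the 3 Ggcx peaks. Pathway H3K9ac peaks, 5 higher and 16 lower, became 2 and 8 with promoter peaks only, 0 and 5 at p under 0.01, 0 and 2 at FDR under 0.05, 2 and 10 at a log2 fold change of at least 1, and 4 and 6 at higher signal. Within 10 kb they were 5 and 21 by transcripts in the files, and 12 and 36 by RefSeq genes, an alternative added after seeing the data. The 3 higher H3K9me3 pathway peaks became 0 with promoter peaks only, at p under 0.01, at FDR under 0.05 and at higher signal, and 1 within 10 kb by either set of positions. Member H3K9me3 (0) and member and pathway H3K4me3 counts (1 and 3) did not change under the alternatives run for them. Leaving out a replicate or changing the normalisation was not run, as the files give group means only. No paired analysis was possible because no values per sample are given. Depth is unknown, so no limit of detection is given.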

Other observations

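Some listed H3K9ac peaks within 10 kb of a pathway gene carry the symbol of another gene. There were 29 such peaks, 7 higher and 22 lower, beside 20 of the 81 genes, and 4 of them had an FDR under 0.05 by the authors' deposited table. These shares, 75.9% lower and 13.8% with that FDR, are near the 77.2% and 16.6% of all listed H3K9ac peaks. These 4 were picked by that FDR after their values were seen. A peak at a start of Phldb3, 1.64 kb from Ethe1, the persulfide dioxygenase of hydrogen sulfide oxidation, was 3.16-fold higher in knockout (FDR 0.0101) by the authors' deposited table. One annotated to Smcr8, 6.39 kb from the serine hydroxymethyltransferase gene Shmt1, was 2.06-fold higher (FDR 0.0107) by the authors' deposited table. At a start of Akap5, 4.21 kb from Mthfd1, H3K9ac was 2.51-fold higher (FDR 0.0422) by the authors' deposited table, while the start-site peak of Mthfd1 was 2.51-fold lower there. Another peak with the Akap5 symbol, overlapping Mthfd1, was 1.84-fold lower (FDR 0.106) by the authors' deposited table. The Ccdc130 peak, 7.37 kb from the salvage gene Mri1, was 2.48-fold lower (FDR 0.0118) by the authors' deposited table. Whether any of these peaks bears on the pathway gene beside it was not tested.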
